A study of Mus musculus with 8 samples.

Results

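The mouse microRNAs (miRNAs) numbered miR-8090 to miR-8120 were followed in the serum of non-irradiated and X-irradiated mice. Members were all miRNAs on the array whose miRBase number lies in this range, and they came to 31 of the 1881 mouse miRNAs on the array. The rule uses the number alone and no signal.

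The study looked for serum miRNAs that change after a high dose of ionizing radiation. Serum RNA of 4 mice given no irradiation (0 Gy) and of 4 mice given 7 Gy of X-rays was hybridised to 1-colour Agilent arrays for mouse miRNAs, each serum to an array of its own. All mice were male C57BL/6NJcl animals aged 8 weeks, with no transgene or drug in either group. The 7 Gy sera were taken 72 h after irradiation, and the time of blood collection for the 0 Gy sera on the arrays is not given in the sources used here. The sera are titled as replicates, and if any of them did not come from a separate mouse the p-values below measure only the spread between these samples.

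MiRNAs are short RNAs that are cut from hairpin precursors and guide Argonaute proteins to messenger RNAs, mainly through the seed, which is bases 2 to 8 of the mature strand. Serum carries miRNAs that cells have released, within vesicles or bound to protein, and so holds a mixture from many tissues. High miRBase numbers were mostly given to miRNAs found by sequencing of small RNA libraries, and far less is known about such miRNAs than about the families with low numbers.

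RefSeq mature sequences (build GRCm38.p6) were found for 29 of the 31 members, all but miR-8097 and miR-8108, and were 20 to 23 bases long. The first 7 sequences shown are those of the members whose signal passed the floor used in the test between the groups. They are followed by the pair of members that share a seed, and by the members with the lowest G content among those detected on every array (miR-8103) and on none (miR-8114). Capitals mark the seed.
miR-8093: uUGGGGAGcagagcaugagug
miR-8100: aGGAGGAAagggagcaagcaggu
miR-8101: gGCGAGCGgagccggaggagcc
miR-8102: uCACGCGGgggaacgaggaaga
miR-8109: gCGCCGCGugccggccgcggg
miR-8110: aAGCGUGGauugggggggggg
miR-8117: gCUCGUGUggaacagaagggg
miR-8113: cAGGAGAGucaggggcaaguag
miR-8119: gAGGAGAGggagcuaggguc
miR-8103: uCUCCUGUucucuguucuccc
miR-8114: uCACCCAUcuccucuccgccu

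The members are no seed family. The 29 sequences held 28 different seeds, and only miR-8113 and miR-8119 shared one (AGGAGAG), which is also the seed of miR-7012-5p and miR-7057-5p. In all, 5 members shared their seed with another matched miRNA, and none of the 7 members tested between the groups did so. MiR-8110 ended in a run of 10 G (bases 12 to 21), and no other of the 1608 array miRNAs with a matched sequence had a run as long. Only 4 matched miRNAs, miR-8110 included, had a run of 6 or more.

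Of the 29 matched members, 22 lay inside an annotated gene and 21 of these inside a protein-coding one. Whether an exon or an intron was overlapped, and on which strand, was not analysed here. MiR-8101 (chr11:102230103-102230124, minus strand) lay within Hdac5, which encodes a histone deacetylase, and miR-8093 (chr2:32687706-32687726, minus strand) within Fpgs, whose enzyme adds glutamates to folates. MiR-8100 (chr11:46102300-46102322, plus strand) lay within Adam19, a membrane-bound metalloprotease gene. MiR-8119 (chr4:129557756-129557775, minus strand) lay within Lck, the gene of a T cell kinase, and miR-8113 (chr6:125234756-125234777, minus strand) within Cd27, a gene of a lymphocyte receptor. MiR-8117 (chr5:50252823-50252843, plus strand) lay within the long non-coding RNA gene Gm40301. MiR-8110 (chr8:89024791-89024811, plus strand), miR-8109 (chr8:85700935-85700955, plus strand) and miR-8102 (chr11:97744974-97744995, plus strand) lay in no annotated gene.

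The members were split into those seen on every array and those seen on none. Feature Extraction, the software that reads the scans, called 15 members detected on all 8 arrays, which is 48.4% of the members against 16.5% of all 1881 miRNAs. These were miR-8090, miR-8093, miR-8094, miR-8095, miR-8100, miR-8101, miR-8102, miR-8103, miR-8105, miR-8107, miR-8108, miR-8109, miR-8110, miR-8117 and miR-8119. The share detected on all 8 arrays was 36.8% for miR-5097 to miR-5136 and 27% for the 5p arms of miR-6896 to miR-7093. For the other miRNAs numbered 1000 or more it was 14.5%, and for numbers under 1000 it was 13.8%. Another 13 members were detected on no array, 41.9% against 57.3% of all miRNAs. These were miR-8091, miR-8096, miR-8098, miR-8099, miR-8106, miR-8111, miR-8112, miR-8113, miR-8114, miR-8115, miR-8116, miR-8118 and miR-8120. Of the pair with a common seed, miR-8119 was therefore detected on every array and miR-8113 on none.

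The remaining 3 members were detected on some arrays. MiR-8097 was detected on 3 arrays of 0 Gy, with a scaled signal (defined below) of 3.06, 26.2 and 15.3 on replicates 2, 3 and 4, and on 1 array of 7 Gy, replicate 4, with 4.72. MiR-8092 was detected on 7 Gy replicates 2 and 4 and on no 0 Gy array. MiR-8104 was detected on 7 Gy replicate 2 alone. No fold is given for these 3 members, which were measured on too few arrays.

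The number of members detected did not separate the groups. Replicates 1 to 4 had 15, 16, 16 and 16 members detected in the 0 Gy group and 15, 17, 15 and 17 in the 7 Gy group, so that the groups overlapped. The means were 15.8 ± 0.500 (SD, n = 4) and 16 ± 1.15 (SD, n = 4), and the two-sided exact permutation test gave p = 1. The number of all miRNAs detected ranged from 531 to 603 at 0 Gy and from 378 to 687 at 7 Gy. On 7 Gy replicates 1 and 3, which had the fewest miRNAs detected in total (379 and 378), 15 members were still detected.

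The irradiated arrays differed from each other in quality. The labelling spike-ins, control RNAs added before the Cy3 dye is attached, were out of the accepted range of the software on 7 Gy replicates 1, 3 and 4, and the 90th percentile of signal spanned 12.2-fold over the 8 arrays. All arrays lay on 1 slide, and the slide column cannot be told apart from the group. The serum held miRNAs of several sources. MiR-451a and miR-486a-5p of red cells, miR-223-3p of myeloid cells, miR-133a-3p, 1 of 3 muscle markers, and miR-375-3p of pancreatic islets were detected on all 8 arrays, and miR-124-3p and miR-9-5p of brain on 0. Detection does not give the level, and the scaled signal (defined below) of miR-451a ran from 10.6 to 67369 over the arrays. MiR-16-5p and miR-144-3p of red cells, miR-150-5p of lymphocytes, miR-142a-3p of myeloid cells, miR-126a-3p of platelets and endothelium and miR-122-5p of liver were each detected on 4 arrays of 0 Gy and 1 of 7 Gy. The other muscle markers, miR-1a-3p and miR-206-3p, were each detected on 3 arrays of 0 Gy and 1 of 7 Gy, and miR-155-5p of lymphocytes on 3 and 0. The part of these differences in the results on the members was not tested, and more releasing cells and more RNA released per cell cannot be told apart in serum.

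The members held a larger share of the miRNA signal on the irradiated arrays. Their share of the summed signal of all detected miRNAs, a share of fluorescence that needs no scaling between arrays, was 0.807%, 1.85%, 2.86% and 2.80% in replicates 1 to 4 of the 0 Gy group. In replicates 1 to 4 of the 7 Gy group it was 9.47%, 3.15%, 8.99% and 5.27%. The groups did not overlap, with the irradiated arrays above the others. How many other sets of miRNAs separated in this way was not counted. The means were 2.08% ± 0.966 (SD, n = 4) and 6.72% ± 3.03 (SD, n = 4), with p = 0.0286 in the two-sided exact permutation test, which is the smallest p that 4 against 4 arrays allow. The difference was 4.98 percentage points within slide row 1 and 4.30 within slide row 2.

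**Figure D1:**
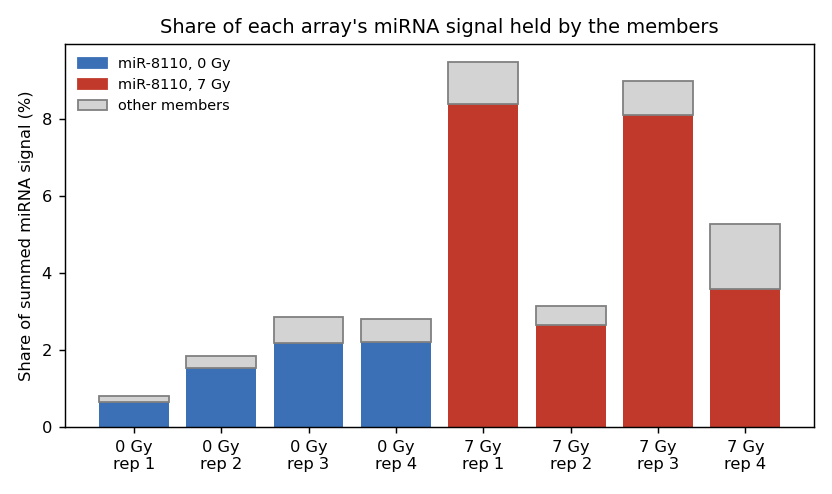
Share of the summed miRNA signal of each array held by the members, in percent, with 1 bar per array, miR-8110 coloured by group and the other members stacked in grey. The 0 Gy bars reach 0.807% to 2.86% and the 7 Gy bars 3.15% to 9.47%, and miR-8110 makes up most of every bar.

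MiR-8110 carried most of this share. It alone held 0.664%, 1.55%, 2.18% and 2.21% of the signal in the 4 non-irradiated sera, in replicate order, and 8.38%, 2.66%, 8.11% and 3.60% in the 4 irradiated sera, again without overlap (means 1.65% ± 0.725 and 5.69% ± 2.98, SD, n = 4, p = 0.0286 in the exact permutation test). The other members together held 0.428% ± 0.250 (SD, n = 4) without irradiation and 1.03% ± 0.493 (SD, n = 4) after it, with groups that overlapped (p = 0.0857, exact permutation test). Within the members' summed signal, miR-8110 made up 76.2% to 83.7% at 0 Gy and 68.3% to 90.2% at 7 Gy. How many other miRNAs had shares without overlap between the groups was not counted. The separation is therefore not known to be particular to miR-8110 or to the members. The study's own array comparison of irradiated with non-irradiated sera had already listed miR-8110 as increased. The p-values of miR-8110 and of the share that it dominates are therefore no independent support for that listing.

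The share rose against a total that differed widely between arrays, while the members' own summed signal did not separate the groups. The summed signal of all detected miRNAs was 435147, 275149, 143599 and 113252 in the 0 Gy group and 32237, 242772, 37161 and 160269 in the 7 Gy group, in the arbitrary intensity units of the scanner. The members' summed signal was 3510, 5081, 4105 and 3170 in the 0 Gy group and 3052, 7653, 3339 and 8444 in the 7 Gy group. The highest shares were thus found on the arrays with the lowest totals, 7 Gy replicates 1 and 3, where the members' signal lay below or within the 0 Gy range. The exact permutation test of the members' mean summed signal gave p = 0.4. The total includes the red cell miR-451a, which was lower at 7 Gy in the fits described below. Its log2 fold change was -5.34 with the floor (limma adjusted p = 0.129) and -6.62 with no floor (limma adjusted p = 0.0150). The part of miR-451a in the change of share was not tested.

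For the comparison of single miRNAs the arrays were brought to the same 90th percentile of signal, values under a floor of 100 were raised to 100 and log2 was taken. The percentile and the value of 100 are those of the study's methods, which name 100 as a lower cut-off without saying that lower values were raised to it. Fold changes are 7 Gy over 0 Gy on the log2 scale. Of the members, 7 of 31 exceeded the floor on at least 1 array and were tested among 208 miRNAs, and 9 others that were detected on 3 or more arrays lay at the floor on all 8. The 7 were the members that passed a filter on signal and do not stand for the whole number range. MiR-8100, miR-8102 and miR-8109, 3 of the 7, passed it only through 7 Gy arrays, so that with the floor their change could only be positive.

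None of the 7 members passed the test in either direction (limma, Benjamini-Hochberg adjusted p under 0.05 over all 208), against 1.92% of all miRNAs higher and 1.92% lower. At an unadjusted p under 0.05 only miR-8110 was higher, 1 of 7 against 22.1% of all. No member had irradiated arrays that all lay above the non-irradiated ones, against 6.73% of all.

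The scaled signal of miR-8110 in replicates 1 to 4 was 1126, 1920, 3330 and 2326 for 0 Gy and 11707, 2450, 13951 and 4358 for 7 Gy. Replicates 1, 3 and 4 of 7 Gy lay above all 0 Gy arrays, and replicate 2 lay among them. The log2 fold change was 1.68 (SE 0.63, limma adjusted p = 0.135), with 1.86 within slide row 1 and 1.49 within slide row 2. Both probes of miR-8110 gave nearly the same change, 1.66 and 1.70. Without 7 Gy replicate 2, miR-8110 and miR-8101 were called, 2 of 7 against 26.9% of all 208 miRNAs higher. The same 2 members were called with array weights, against 29.3% of all, and the lowest weight was that of 7 Gy replicate 2 (0.25). Without this replicate, every irradiated array left had labelling spike-ins out of range. For miR-8110 the log2 fold change without that array was 2.14 and passed the test (limma adjusted p = 0.0262, in a range of 0.00724 to 1 over all alternatives).

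The size of this change depended on the scaling. Before scaling, the signal of miR-8110 was 2888, 4252, 3129 and 2502 for 0 Gy and 2702, 6469, 3013 and 5767 for 7 Gy. It varied 2.58-fold over the arrays, much less than the 90th percentile to which the arrays were scaled, and 7 Gy replicates 1 and 3 lay within the 0 Gy range. Without scaling the log2 fold change was 0.41 (SE 0.55 with no floor, limma adjusted p = 0.999). It was 0.46 (SE 0.60 with no floor) with the labelling spike-ins taken as a covariate. Over the 5 arrays with spike-ins in range, of which 7 Gy replicate 2 was the only irradiated one, it was 0.28. It stayed above 0 in each of these settings, but by less than its SE where an SE is given.

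MiR-8101, of the Hdac5 locus, had a scaled signal of 83.3, 127, 214 and 176 for 0 Gy and 433, 110, 522 and 489 for 7 Gy. As for miR-8110, the replicates 1, 3 and 4 of 7 Gy exceeded the 0 Gy range and replicate 2 did not. The log2 fold change was 1.17 (SE 0.54, limma adjusted p = 0.208), and without 7 Gy replicate 2 it was 1.70 and passed the test (limma adjusted p = 0.00670). Its direction turned without scaling (-0.03), with the spike-in covariate (-0.16) and over the arrays with spike-ins in range (-0.43).

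MiR-8093, of the Fpgs locus, had a scaled signal of 32.5, 44.8, 261 and 128 for 0 Gy and 446, 120, 202 and 755 for 7 Gy. Here the non-irradiated arrays themselves spread widely, and 2 irradiated arrays lay above them all. The log2 fold change was 1.15 (SE 0.62, limma adjusted p = 0.259), and it turned to -0.06 with the spike-in covariate and to -0.17 over the arrays with spike-ins in range. MiR-8117, of the Gm40301 locus, had a scaled signal of 28.4, 48.2, 292 and 133 for 0 Gy and 189, 36.3, 165 and 212 for 7 Gy. No irradiated array exceeded the highest non-irradiated one, the log2 fold change was 0.19 (SE 0.41, limma adjusted p = 0.725), and its sign changed in 7 of the alternatives. Within slide rows 1 and 2 the changes were 0.95 and 1.38 for miR-8101, 1.21 and 1.1 for miR-8093, and 0.46 and -0.08 for miR-8117, which alone of these turned between the rows.

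MiR-8102, miR-8109 and miR-8100 lay under the floor on all 0 Gy arrays, so that their changes were held down by the floor. MiR-8102 had a scaled signal of 28.2, 31.6, 75.3 and 60 for 0 Gy and 105, 47.6, 126 and 233 for 7 Gy, and a log2 fold change of 0.41 (SE 0.27, limma adjusted p = 0.337). MiR-8109 had 9.40, 20.0, 21.8 and 19.2 for 0 Gy and 104, 26.5, 126 and 22.6 for 7 Gy. MiR-8100 had 14.7, 18.3, 32.0 and 15.4 for 0 Gy and 62.9, 27.2, 109 and 92.4 for 7 Gy. With the floor the log2 fold changes of miR-8109 and miR-8100 were 0.10 and 0.03.

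To bring in the weaker members, the test was repeated with no floor on the 311 miRNAs detected on all 8 arrays, a setting chosen after the data were seen. All 15 members then had a log2 fold change above 0, from 0.41 for miR-8107 to 1.85 for miR-8093, with SEs of 0.60 to 0.75, whereas 9 of 15 were above 0 without scaling. So did most miRNAs, since 83.9% of the 311 were above 0 and their median was 1.1, against 1.38 for the members. None of the 15 passed the test (limma, smallest adjusted p = 0.0698, for miR-8100), against 1.29% of all higher and 2.25% lower. At an unadjusted p under 0.05, 8 of 15 were higher, against 30.2% of all.

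Only for miR-8109 were the groups free of overlap, with the irradiated arrays above, 1 of 15 against 13.2% of all. Its log2 fold change with no floor was 1.66 (SE 0.66, limma adjusted p = 0.0914), with probes at 1.37 and 1.82. The call depended on single arrays and on the slide row. With no floor, 12 of 15 members were called higher without 7 Gy replicate 2 (59.8% of all miRNAs) and 4 without 0 Gy replicate 3 (15.4% of all). The irradiated arrays left without 7 Gy replicate 2 all had labelling spike-ins out of range. With the slide row as a block, 6 members were called higher, against 28.9% of all, and these were miR-8093, miR-8094, miR-8100, miR-8102, miR-8105 and miR-8110.

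In the plot of the members by array the irradiated replicate 2 stood apart from the other irradiated sera. It was also the only irradiated array whose labelling spike-ins were in the accepted range. It was the lowest irradiated array for 13 of the 15 members, and it lay above all non-irradiated arrays for 1 member, against 10 members on each of the other irradiated arrays. Over all 311 miRNAs the corresponding shares were 19.0% on replicate 2 and 65.6%, 71.7% and 58.8% on replicates 1, 3 and 4.

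**Figure D2:**
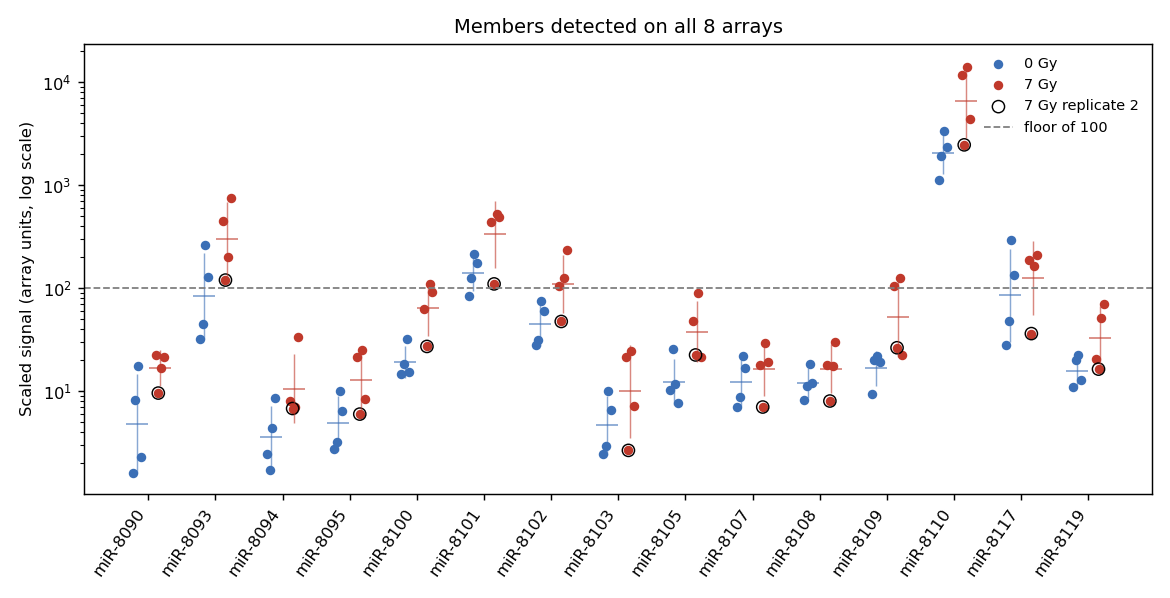
Scaled signal (log axis, array units) of the 15 members detected on all 8 arrays, with 1 point per array, blue for 0 Gy and red for 7 Gy, and a bar and line for the geometric mean and 1 SD of the log2 values. 7 Gy replicate 2 is ringed and is the lowest irradiated point for 13 members, the dashed line is the floor of 100, and heights are comparable within a miRNA and not between miRNAs.

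The members can also be set against the median of all 311 miRNAs. Scaling moves every log2 fold change of this comparison by the same amount, so that the distance of a member from that median is free of it. MiR-8110 lay 0.57 above that median, miR-8093 0.75, miR-8090 0.69, miR-8100 0.65 and miR-8109 0.56 above it. MiR-8107 lay at -0.69, miR-8108 at -0.63 and miR-8117 at -0.56 from it. In all 10 of the 15 members lay above the median, and no test was made of these distances. They moved with the spike-in covariate, from 0.75 to 0.27 for miR-8093, from 0.51 to 1.18 for miR-8105 and from -0.56 to -1.43 for miR-8117.

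Without scaling and without the floor, the median over all 311 miRNAs was -0.16 and that of the members 0.12. The direction then held for 9 of the 15 members and turned for miR-8101, miR-8103, miR-8107, miR-8108, miR-8117 and miR-8119. No member was called, against 0% of all miRNAs, and the smallest exact permutation p of the unscaled signals of the 15 members was 0.286. The unscaled signal of a member varied from 1.94-fold over the arrays for miR-8103 to 29.2-fold for miR-8094, and for 11 of the 15 it varied less than the 90th percentile did.

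**Figure D3:**
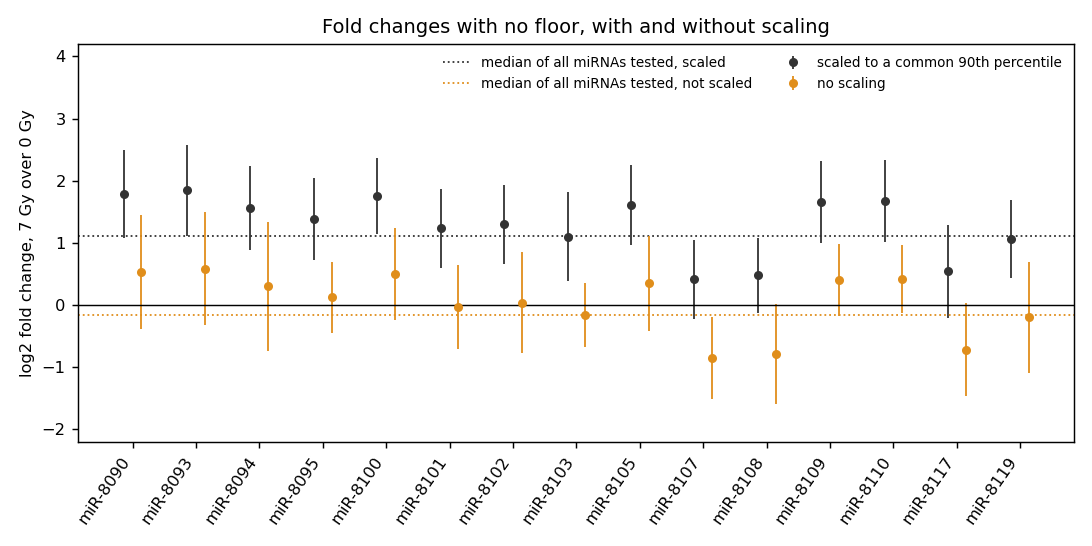
Log2 fold change of 7 Gy over 0 Gy with its SE from limma for the 15 members, with no floor, scaled to a common 90th percentile (black) and not scaled (orange), with dotted lines at the medians of all 311 miRNAs. All 15 black points lie above 0 around their line at 1.1, whereas 9 orange points lie above 0 around a line at -0.16.

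The error of measurement differed between members. MiR-8103 had a scaled signal of 2.46, 2.97, 9.97 and 6.58 for 0 Gy and 21.4, 2.68, 24.5 and 7.24 for 7 Gy, while its signal before scaling stayed between 4.94 and 9.58 on all arrays. Its error as given by the software reached 21% of the signal, with 32.2% for miR-8094 and at most 7.08% for miR-8110. Each of the 15 members had 2 or 3 probes and 30 spots, and for miR-8108 only 1 probe had a signal on every array. For miR-8090, miR-8094, miR-8105 and miR-8119 the signal came from 1 probe alone on at least 1 array and from 2 on others. For miR-8093, whose spots were all above background on the 8 arrays, the probes gave log2 fold changes of 1.84 and 1.85. For miR-8105 they gave 1.51 and 2.83, and the second probe had no array with all its spots above background. For miR-8090 they gave 1.31 and 2.58, and each of its probes had all spots above background on 4 arrays.

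Members detected on all arrays were rich in G. The median G content was 46.5% for the 14 of them with a sequence and 28.6% for the 13 members detected on no array. The same order held over all matched miRNAs, with 39.1% for those detected on all 8 arrays and 22.7% for those detected on none. MiR-8110, at 66.7%, ranked 5 among all matched miRNAs. The members overlapped in this respect, since miR-8103 with 9.52% was detected on every array and miR-8091 with 50% on none.

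**Figure D4:**
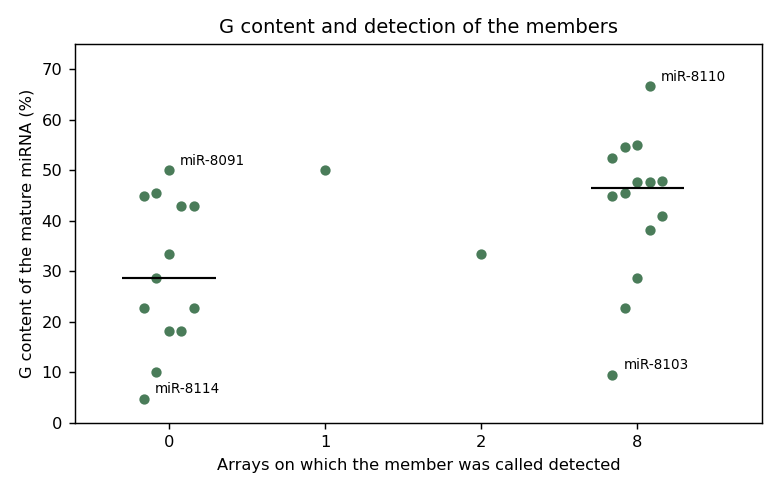
G content of the mature sequence, in percent, of the 29 matched members against the number of arrays on which each was called detected, with lines at the medians of 28.6% (0 arrays) and 46.5% (8 arrays). Both groups span a wide range, and miR-8110 is the highest at 66.7%.

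The base content of the miRNAs also ran with the change between the groups. For G content with the floor, the Spearman correlation across 177 matched miRNAs was 0.62 (Pearson 0.55), and with no floor it was 0.22 across 266 (Pearson 0.24). For the content of G and C together the Spearman correlations were higher, 0.67 with the floor (Pearson 0.57) and 0.41 with no floor (Pearson 0.42). Within the 14 matched members that of G content was 0.19 (Pearson 0.18). These correlations are across miRNAs measured on the same 8 arrays, which share depth and labelling and are not independent, and they are given as descriptions.

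With no floor, the median log2 fold change was 1.38 over the 15 members and 1.31 over the 14 of miR-5097 to miR-5136 that were detected on all arrays. It was 1.08 over 54 of the 5p arms of miR-6896 to miR-7093, 1.18 over the 115 other miRNAs with a number of 1000 or more, and 0.81 over the 113 with a number under 1000. The difference between these classes was not tested.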

How the data were processed

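Serum miRNA of 4 mice at 0 Gy and 4 at 7 Gy had been labelled from 30 ng of RNA and hybridised to 1-colour Agilent arrays. The deposited intensity values are the authors' Feature Extraction output (version 11.5 in the submitters' processing notes): background-subtracted signals summed over probes of a miRNA, with 0.1 where it was not called detected and no normalization between arrays. The study's methods name an earlier version of the software. For some members the sum held 1 probe alone on some arrays.

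Each array was scaled to the geometric mean of the 90th percentiles, floored at 100 and log2-transformed. The methods name a cut-off of 100 without saying whether it is a floor, and their centring of each miRNA on its median, which changes no difference between groups, was left out. MiRNAs detected on at least 3 arrays and not at the floor on all were compared with limma 3.58.1 in R 4.3.3 (lmFit, eBayes, Benjamini-Hochberg over 208 miRNAs), checked on simulated data. Single values per array were compared with exact permutation tests over 70 arrangements. Depth does not apply to arrays, whose number limits the precision. Sequences and loci came from RefSeq tables (GRCm38.p6). Plots used matplotlib 3.10.9 (Python 3.11.15).

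The members, lists and alternatives were chosen with earlier results of these data known. All members detected on any array are named. Values on every array are given for the 7 members tested and for miR-8103, and for the others selected values or the name alone. Alternatives covered scaling, floor, filter, spot signals, normexp (offset 50, on median spot signals), the methods' t-test, array weights, variance prior, replicate and slide row blocks, spike-ins and leaving out each array. Fits with no floor were added after the data were seen.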

Additional observations from a re-analysis of the deposited data

Results flagged for a closer look

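In 34 groups of 4 arrays examined (each member detected on all arrays and the summary values, in each dose group), 5 had 1 array far from the other 3 by Dixon's criterion. Chance gives about 1 in 20 for a single group of normal values. These groups share arrays and scaling and are not independent, so that the count was not tested against that rate. On 7 Gy replicate 2 the log2 scaled signal was 6.78 for miR-8101, against 8.76 to 9.03 on the other irradiated arrays, and 5.18 for miR-8117, against 7.37 to 7.73. On 7 Gy replicate 4 it was 5.06 for miR-8094, against 2.77 to 3.01. On 0 Gy replicate 1 it was 3.23 for miR-8109, against 4.26 to 4.45. On the same array 15 members were detected, against 16 on each of the other 0 Gy arrays. These counts are whole numbers with no spread among the other arrays, so that any difference of 1 would have met the criterion.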

How the results depend on the processing

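The limits are these. The floor hides 8 of the 15 members detected on all arrays, the scaling factor of an array moves all its miRNAs together, and 3 of 4 irradiated arrays had labelling spike-ins out of range, so that only 1 irradiated array remained in that alternative and was assumed to vary like the others. With 7 arrays the exact permutation test cannot go below 0.0571. Scaling to the 75th percentile of all miRNAs was not run because that percentile is 0.1 on some arrays.

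No member was called lower in any alternative. With the floor, 2 members (miR-8101 and miR-8110) were called higher with array weights (29.3% of all miRNAs) and 2 without 7 Gy replicate 2 (26.9%), in a range of 0 to 2 over the arrays left out, and 1 (miR-8110) by the methods' t-test at 1.5-fold (16.3%) but 0 after adjustment. With no floor, 6 members (miR-8093, miR-8094, miR-8100, miR-8102, miR-8105 and miR-8110) were called with the slide row as a block (28.9% of all), 4 without 0 Gy replicate 3 (15.4%) and 12 without 7 Gy replicate 2 (59.8%), in a range of 0 to 12. Leaving out 7 Gy replicate 2 kept only irradiated arrays with labelling spike-ins out of range. The cause of the differences between alternatives was not tested.

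With the replicate number as a block, 8 members were called with no floor (29.9% of all) and 0 with the floor, and the difference in signal share stayed at 4.64 percentage points with p = 0.125, the smallest that the 16 sign changes of the exact permutation test allow. Same-numbered arrays deviated together for replicates 2, 3 and 4 (r = 0.43, 0.55 and 0.42) but not for replicate 1 (r = -0.34). Between arrays of different numbers r ran from -0.72 to 0.71, so that the numbers were not taken as pairs.

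The share difference was 0.602 percentage points without miR-8110 (p = 0.0857, exact permutation test) and 1.07 over arrays with spike-ins in range (p = 0.4, the smallest possible with 4 against 1 in the exact permutation test), and 3.72 to 5.83 without each array in turn (p = 0.0571 each, exact permutation test). The difference in members detected per array ran from -0.0833, without 7 Gy replicate 2 or 4, to 0.583.

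Some log2 fold changes turned. With the floor, miR-8093 was -0.055 with the spike-in covariate and -0.17 on arrays with spike-ins in range, and miR-8101 -0.16 and -0.43, and -0.027 with no scaling. MiR-8117 was -0.30 and -0.029 with the 75th and 90th percentile over the 311 miRNAs detected throughout, -0.10 with quantile normalization, -0.15 with no scaling, -0.12 with a floor of 200, -0.68 with the covariate and -0.49 in range. With no floor, the values with no scaling, with the covariate and in range were -0.027, -0.14 and -0.36 for miR-8101, -0.16, -0.58 and -0.80 for miR-8103, -0.85, -0.83 and -0.80 for miR-8107, -0.79, -0.52 and -0.57 for miR-8108, and -0.72, -1.45 and -1.23 for miR-8117. MiR-8119 was -0.20 with no scaling and -0.00071 with the covariate.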
